A study of Mus musculus with 15 samples.

Results

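Transcript levels were compared in the tibialis anterior (TA), a fast muscle of the lower hind leg, between mice given dasatinib and quercetin (D + Q) and mice given vehicle, gene family by gene family. The comparison used the 8 TA libraries of the 15 bulk RNA-seq libraries in the series, chosen by their labelled tissue and treatment, with 1 library per mouse and 4 mice per group. All mice were DBA/2J-mdx, a dystrophin-deficient strain. Treatment was given 2 times per week for 2 months, from 3 months to 5 months of age, and TA was collected at 5 months. The 4 D + Q mice were male, whereas vehicle mice 1 and 3 were male and vehicle mice 2 and 4 were female. Treatment and sex therefore cannot be fully told apart in the 8 mice, and values for the males alone (4 D + Q and 2 vehicle mice) are given beside many of the results.

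Without dystrophin, the link between the actin skeleton of the muscle fibre and the surrounding matrix is weak, and fibres tear, die and regenerate repeatedly. Satellite cells rebuild fibres, macrophages clear debris, and fibro-adipogenic progenitors deposit collagen or turn into adipocytes. Dasatinib blocks SRC-family, ABL, PDGF-receptor and other tyrosine kinases, quercetin is a plant flavonol, and the pair is used as a senolytic, a treatment meant to remove senescent cells. Senescent cells hold high levels of CDK inhibitors such as p16 and p21 and secrete cytokines, chemokines and proteases.

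The authors' values are TPM, a measure of transcript abundance corrected for transcript length and library size, so every library has the same total, depth is unknown and precision comes only from the spread between mice. Values of single mice are listed in the order of mouse 1 to mouse 4 of each group. Between 21830 and 24393 genes were above 0 TPM per library, with 22958 ± 1133 (SD) in the D + Q group and 24162 ± 237 (SD) in the vehicle group. An exact two-sided permutation test over 70 splits did not place the difference of -1204 genes beyond the spread (p = 0.086, smallest p possible 0.0286). Without D + Q mouse 1 the difference was -1600 genes and p was 0.0286, the smallest that split allows. The 10 most abundant transcripts held 36.2% to 43.3% of all TPM. The small nuclear and signal-recognition RNAs of the annotation class misc_RNA held 15.1% in D + Q mouse 3 and 8.11% to 11.8% in the other libraries. Muscle genes were those of the label. Acta1 and Ckm, skeletal actin and muscle creatine kinase, were at 10241 to 15973 TPM and 6726 to 10587 TPM, while the cardiac genes Myh6, Nppa and Tnni3 did not exceed 1.89 TPM. Xist was at 70.7 to 73.2 TPM in the female-labelled mice and at most 0.0790 TPM in the male-labelled mice, and the Y-linked gene Ddx3y was at 28.7 to 35.3 TPM in males and at most 0.220 TPM in females.

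Of 56980 genes, 16298 reached 0.5 TPM in 3 or more mice. These were compared by limma, with values taken as log2(TPM + 0.5) and 1 surrogate variable as a covariate. A log2 fold change below is the fitted difference D + Q minus vehicle on this scale, given with its standard error, and it is too small for genes of low TPM because of the added 0.5. Calls required a Benjamini-Hochberg p-value below 0.05 together with a log2 fold change beyond 0.5 in either direction. No gene was called in either direction (0% of those tested), and the smallest adjusted p-value was 0.999. With the p-value left unadjusted, 80 genes were higher (0.491%) and 280 were lower (1.72%) with D + Q. All 4 D + Q mice lay above all 4 vehicle mice in 43 genes (0.264%) and below them in 204 genes (1.25%). Of the 70 ways to split the mice into groups of 4, 1 puts a given group wholly above the other. Both shares are below 1 in 70, so neither count exceeds what chance alone gives on average. At any fold, 490 genes had an unadjusted p below 0.05, also a smaller share than the 0.05 that chance gives. The shares in this paragraph are the background against which each family is read, and they depend on the mice and on the model. Leaving out 1 mouse gave 141 to 792 lower genes at the unadjusted threshold and 217 to 1055 genes with D + Q below throughout. With rescaled libraries 100 genes were higher and 177 lower at that threshold, and with sex as the covariate 58 and 102. The median log2 fold change over all genes was -0.07 and 66.3% of genes were negative, but after rescaling the libraries by median-of-ratios factors the median was -0.004 and 50.8% were negative, with 158 genes above and 213 below. A family median is therefore read beside its rescaled value where the family is near that median.

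Both female mice were in the vehicle group, so a difference of the females from the males can also be one of treatment. Of the 204 genes in which D + Q was below vehicle, the female vehicle mice were beyond the male vehicle mice in 82, and of the 43 genes in which D + Q was above, in 11. Among all 16298 genes tested, both females lay above all 6 males in 1592 and below them in 396. How often the vehicle females lay beyond the vehicle males over all genes was not counted. The complement gene C7 shows the pattern in 1 transcript: it was at 33.9, 18.7, 31.9 and 23.3 TPM in the D + Q mice and 28.7, 2.16, 31.2 and 1.17 TPM in the vehicle mice. The levels of the male vehicle mice lay within the D + Q range and those of the females far below it, and the fitted log2 fold change was 1.42 ± 0.83 in all mice but -0.19 in males.

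**Figure D1:**
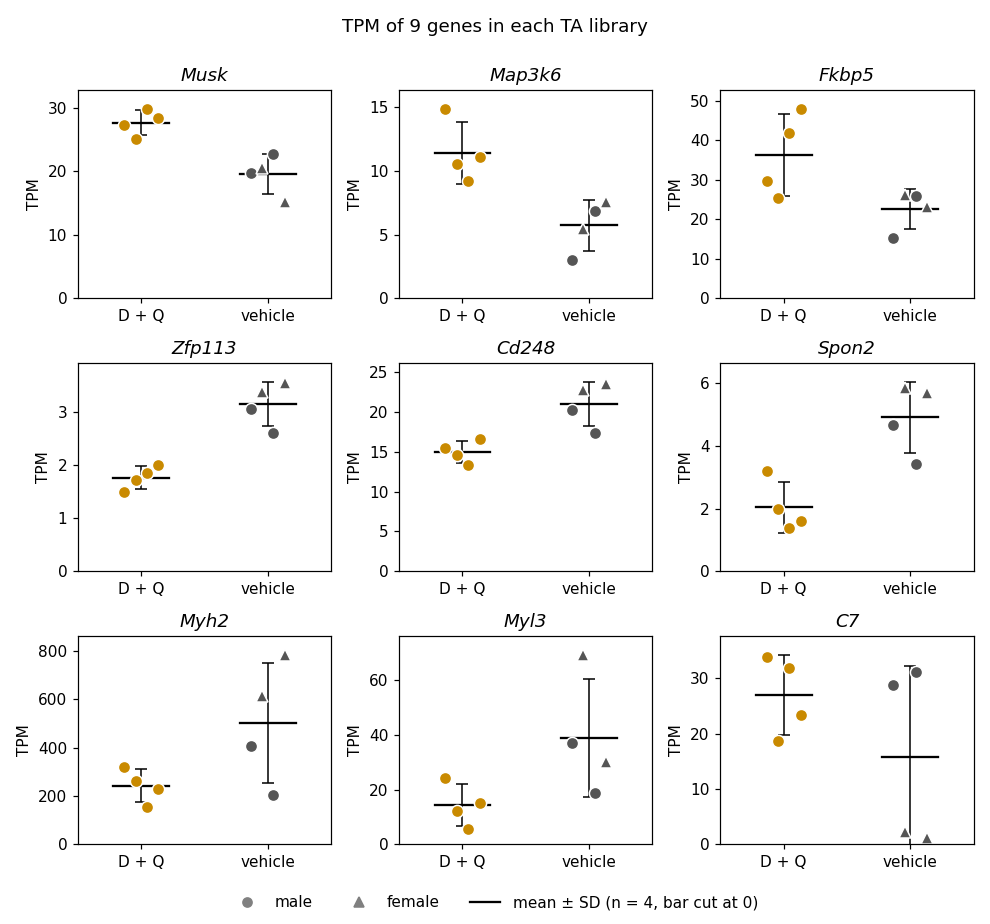
TPM (vertical axes, starting at 0) of 9 genes in each mouse, by treatment, with circles for males, triangles for females and lines and bars for the mean ± SD of 4 mice. Musk, Map3k6, Zfp113, Cd248 and Spon2 separate all 4 D + Q mice from all 4 vehicle mice, Fkbp5, Myh2 and Myl3 overlap, and C7 is low in the 2 female vehicle mice alone.

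Genes whose groups did not overlap were mixed in kind, and some protein-coding ones are described first. They are not ranked by p-value, and Musk did not pass the fold of 0.5. Musk, the muscle-specific receptor tyrosine kinase that organises the neuromuscular junction (GRCm39 chromosome 4, 58285931 to 58377847), stood at 27.3, 25.1, 29.8 and 28.4 TPM in the D + Q mice and 19.8, 20.5, 22.7 and 15.2 TPM in the vehicle mice. The lowest D + Q mouse was above the highest vehicle mouse, with a log2 fold change of 0.48 ± 0.15, unadjusted p = 0.0094, or 0.37 in males. Map3k6, a stress-activated kinase of the ASK family, was at 14.8, 10.5, 9.18 and 11.1 TPM in the D + Q mice and 3.04, 5.44, 6.82 and 7.59 TPM in the vehicle mice. Its groups did not overlap either, and its log2 fold change was 0.89 ± 0.25, or 1.20 in males.

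In the other direction Spon2, which encodes a secreted F-spondin-related matrix protein (chromosome 5, 33353751 to 33378075), stood at 3.19, 1.98, 1.39 and 1.6 TPM in the D + Q mice and 4.66, 5.84, 3.41 and 5.68 TPM in the vehicle mice, a log2 fold change of -1.17 ± 0.25, unadjusted p = 0.00092. Lsm5, a subunit of the LSM ring that binds U6 small nuclear RNA and takes part in mRNA decay, was at 7.15, 4.98, 4.14 and 5.88 TPM in the D + Q mice and 8.09, 11.1, 8.92 and 9.92 TPM in the vehicle mice. In both genes all D + Q mice lay below all vehicle mice, and the males-only log2 fold changes kept the direction (-0.87 for Spon2 and -0.60 for Lsm5). Zfp113, a zinc finger gene, was at 1.48, 1.72, 1.84 and 2.0 TPM in the D + Q mice and 3.05, 3.36, 2.61 and 3.55 TPM in the vehicle mice, with no overlap and a log2 fold change of -0.64 ± 0.18, unadjusted p = 0.0044. None of these values passed the test across all genes (the smallest adjusted p of all genes was 0.999).

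Promoter sequence is shown for Musk and Fkbp5, which had a positive log2 fold change, and for Lsm5 and Zfp113, which had a negative one. Part of the sequence before each start can thus be seen beside the level of the gene. Each line holds 200 bases, from 250 to 51 bases before the transcription start in RefSeq, build GRCm38.p6, on the strand of the gene, and all 4 genes looked up were matched. The windows are chr4:58285712-58285911 (+) for Musk, chr17:28486200-28486399 (-) for Fkbp5, chr6:56704750-56704949 (-) for Lsm5 and chr5:138155795-138155994 (-) for Zfp113. Capitals mark matches to 3 motifs searched on both strands. The first is the E-box CACGTG, which clock and other basic helix-loop-helix factors can bind. The next is AGAACA, the half-site that the glucocorticoid receptor can bind. The last is the GC box GGGCGG of SP-family factors.
Musk: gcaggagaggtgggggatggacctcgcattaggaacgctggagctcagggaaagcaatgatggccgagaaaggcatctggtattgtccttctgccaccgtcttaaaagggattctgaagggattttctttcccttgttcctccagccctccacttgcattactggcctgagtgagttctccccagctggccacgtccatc
Fkbp5: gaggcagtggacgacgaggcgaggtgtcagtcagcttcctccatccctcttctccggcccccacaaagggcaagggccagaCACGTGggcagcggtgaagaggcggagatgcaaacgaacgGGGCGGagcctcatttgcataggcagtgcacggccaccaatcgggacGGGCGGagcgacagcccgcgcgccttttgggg
Lsm5: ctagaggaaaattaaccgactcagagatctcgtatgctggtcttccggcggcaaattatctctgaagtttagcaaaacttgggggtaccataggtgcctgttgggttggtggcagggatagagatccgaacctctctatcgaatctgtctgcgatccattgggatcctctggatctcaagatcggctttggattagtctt
Zfp113: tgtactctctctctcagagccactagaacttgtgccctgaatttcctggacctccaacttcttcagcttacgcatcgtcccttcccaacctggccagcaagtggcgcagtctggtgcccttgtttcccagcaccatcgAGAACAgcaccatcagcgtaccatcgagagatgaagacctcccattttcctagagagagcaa
The Fkbp5 window held an E-box 169 bases and GC boxes 129 and 82 bases before the start, and the Zfp113 window held a half-site 112 bases before it. These letters were absent from the windows of Musk and Lsm5. Over all 32851 promoters of the table, windows of the same length held an E-box in 4.34%, a half-site in 13.2% and a GC box in 24.6%. G and C made up 54.5% of the Musk window, 66% of the Fkbp5 window, 48% of the Lsm5 window and 53% of the Zfp113 window.

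Fibre type came first among the families, because TA is built almost wholly of fast fibres and dystrophic muscle tends to lose the fastest of them. Fast fibre genes had a median log2 fold change of 0.04 over 17 genes with 7 negative, and -0.02 with 12 negative in males. Myh4, the myosin heavy chain of the fastest type IIB fibres, was at 4190, 5529, 5855 and 5829 TPM in the D + Q mice and 5678, 4462, 4857 and 4751 TPM in the vehicle mice. D + Q mouse 1 was the lowest of all and the other 3 D + Q mice lay among or just above the vehicle mice. As a share of the summed TPM of Myh1, Myh2, Myh4 and Myh7, Myh4 made up 62.7 ± 6.47% (SD) with D + Q and 56.7 ± 6.53% with vehicle. Pvalb, the calcium buffer of fast fibres, was at 4180, 5129, 5898 and 5266 TPM in the D + Q mice and 5452, 4686, 4944 and 2488 TPM in the vehicle mice. Vehicle mouse 4 was the lowest of the 8 and D + Q mouse 3 the highest, and the groups overlapped.

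Myh2, the myosin of the slower fast type IIA fibres, was at 321, 263, 156 and 229.6 TPM in the D + Q mice and 408, 611, 206 and 781 TPM in the vehicle mice. Its share of the 4 myosins was 4.15, 2.95, 1.85 and 2.56% with D + Q and 4.42, 6.74, 2.66 and 8.76% with vehicle. The 2 female vehicle mice had the highest values, and the groups overlapped. The log2 fold change was -0.90 ± 0.39, unadjusted p = 0.041, in all mice and -0.30 in males. Without D + Q mouse 3, it was -0.13.

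Slow fibre genes had a median log2 fold change of -0.25 over 15 genes, 12 of them negative. In males the median was 0.11 with 6 negative. Myl3, the slow and ventricular essential myosin light chain, was at 24.3, 12.3, 5.63 and 15.3 TPM in the D + Q mice and 37.2, 69.1, 18.6 and 30.2 TPM in the vehicle mice. The 3 lowest values were D + Q mice and the overlap came from D + Q mouse 1 lying above vehicle mouse 3. The log2 fold change was -1.57 ± 0.43, unadjusted p = 0.0042, or -1.02 in males, the lowest of the list. Myh7, the slow myosin itself, was at 5.02, 2.75, 0.225 and 1.08 TPM in the D + Q mice and 0.977, 24.5, 0.402 and 2.05 TPM in the vehicle mice, with vehicle mouse 2 far above all others. Tnnt1, slow troponin T, was at 17.8, 11.5, 11.7 and 13.9 TPM in the D + Q mice and 8.69, 36.7, 6.65 and 41.6 TPM in the vehicle mice. The female vehicle mice were the highest, while the D + Q mice lay above both male vehicle mice. The log2 fold change was -0.25 ± 0.54 in all mice and 0.79 in males. Myl2, the slow regulatory light chain, went the same way (-0.59 ± 0.67 in all mice and 0.59 in males). Myh7b, a slow-type myosin gene at low level, was the 1 member of the list above in all D + Q mice, at 0.543, 0.504, 0.545 and 0.672 TPM in the D + Q mice and 0.346, 0.456, 0.457 and 0.034 TPM in the vehicle mice. This is 1 of 15 genes or 6.67%, against 0.264% of all genes. The distances are small and the levels low, and vehicle mouse 4 lay far below the other 7.

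Regeneration genes were not set apart by treatment. Embryonic and neonatal sarcomere genes, which mark new fibres, had 6 of 7 positive and a median of 0.11, or 0.38 in males. Their mean level, in log2(TPM + 0.5), was 6.38, 5.02, 5.25 and 5.52 with D + Q and 5.00, 4.95, 5.07 and 6.04 with vehicle. Single mice set the range: D + Q mouse 1 and vehicle mouse 4 stood above the other 6. Myh3, embryonic myosin, was at 24.9, 8.06, 28.1 and 10.2 TPM in the D + Q mice and 9.58, 9.06, 4.42 and 42.9 TPM in the vehicle mice. Myh8, perinatal myosin, was at 23.3, 21.6, 17.7 and 24.7 TPM in the D + Q mice and 18.8, 32.6, 17.5 and 39.1 TPM in the vehicle mice. Of the satellite cell and fusion genes, 9 of 14 were negative (64.3%, against 66.3% of all genes), with a median of -0.11, or -0.04 rescaled. Pax7, the satellite cell transcription factor, was at 0.694, 0.988, 0.872 and 0.929 TPM in the D + Q mice and 1.52, 1.44, 0.711 and 1.08 TPM in the vehicle mice. Myod1, the myoblast factor, was at 52.1, 39.6, 43 and 83.8 TPM in the D + Q mice and 38.6, 41.3, 58.6 and 25.3 TPM in the vehicle mice. The groups overlapped in both genes. Sdc4, a heparan sulfate proteoglycan that satellite cells also carry, had the highest log2 fold change of the list (0.35 ± 0.15, unadjusted p = 0.039), from 94.1, 26.5, 24.1 and 59.4 TPM with D + Q and 23.2, 20.5, 52.2 and 18.5 TPM with vehicle. The groups overlapped, since vehicle mouse 3 lay above D + Q mice 2 and 3.

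Among the 19 denervation and neuromuscular junction genes, 13 were negative (68.4%, against 66.3% of all genes). Their median was -0.10, or -0.02 rescaled and 0.02 in males. Musk was the 1 member whose groups did not overlap (5.26% against 0.264% of all genes). Dok7, the adaptor that activates MuSK from inside the fibre, had the highest log2 fold change of this list, 0.52 ± 0.22, unadjusted p = 0.037, at 6.33, 10.4, 11.6 and 13.5 TPM in the D + Q mice and 7.54, 9.23, 7.01 and 5.96 TPM in the vehicle mice. D + Q mouse 1 lay within the vehicle range and the other 3 lay above it. Subunits of the acetylcholine receptor had log2 fold changes of -0.14 ± 0.12 for Chrna1 and -0.19 ± 0.35 for Chrng. In the dystrophin-associated complex 12 of 19 genes were negative (63.2%), with a median of -0.03, or 0.05 rescaled. Dmd was at 45, 45.7, 51.2 and 44.6 TPM in the D + Q mice and 53.6, 51.9, 42.6 and 54.3 TPM in the vehicle mice. The mdx mutation is a premature stop that leaves a transcript, so this level does not check the genotype. Utrn, the dystrophin relative utrophin, was at 27.8, 24.2, 22.4 and 24.4 TPM in the D + Q mice and 28.2, 37.8, 24.6 and 26.2 TPM in the vehicle mice. The groups overlapped in both genes. Pdlim5, a Z-disc scaffold, was the 1 of 25 thin-filament, titin and Z-disc genes above in all D + Q mice (4.00%, against 0.264% of all genes), at 283, 308, 347 and 349 TPM in the D + Q mice and 278, 195, 271 and 241 TPM in the vehicle mice. Vehicle mouse 1 was close below the lowest D + Q mouse. The log2 fold change was 0.40 ± 0.14, unadjusted p = 0.019, or 0.22 in males.

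**Figure D2:**
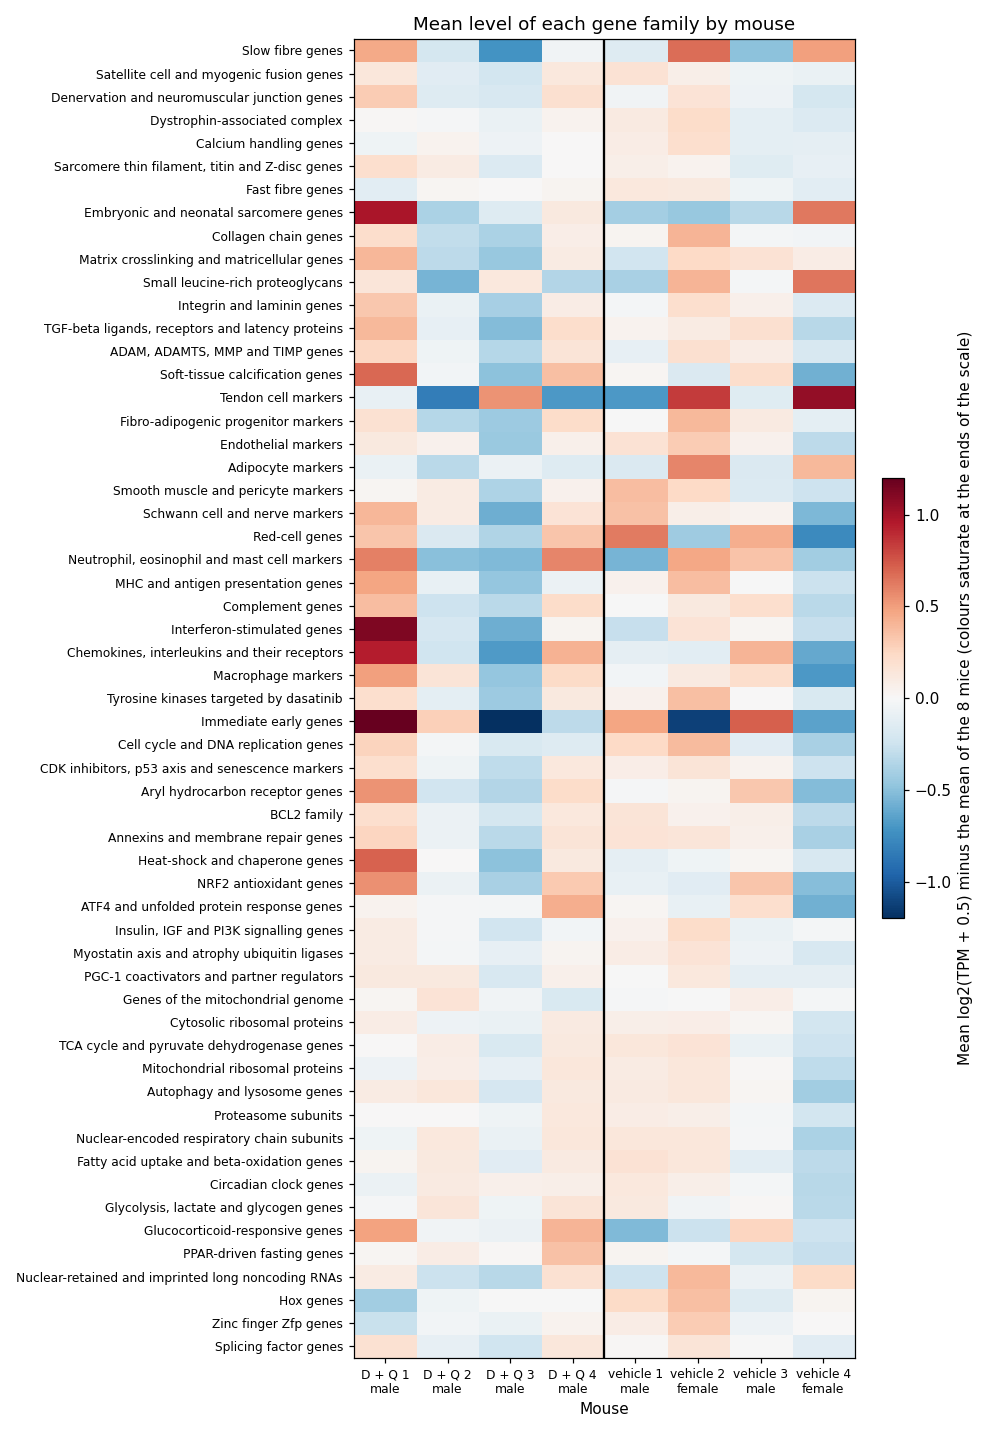
Mean log2(TPM + 0.5) of each gene family (rows) in each mouse (columns, with labelled sex), as the difference from the mean of the 8 mice. Differences between mice of 1 group are as large as those between groups: immediate early genes range from 3.02 to 6.43 within the D + Q group, and tendon cell markers are high in vehicle mice 2 and 4 and in D + Q mouse 3.

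Extracellular matrix genes, which form the scar that replaces dystrophic muscle, were mostly negative. Of 202 matrix genes tested over 7 lists, 160 (79.2%) had a negative log2 fold change, against 66.3% of all genes, with a median of -0.17. None of these 202 genes had groups that did not overlap (0%, against 1.25% below and 0.264% above among all genes). At the unadjusted threshold 8 of the 202 were lower and 0 higher, against 1.72% lower and 0.491% higher among all genes. In males alone 122 of the 202 were negative and the median was -0.04, the same as the median of all genes in that comparison (-0.04). Rescaled libraries gave 145 negative genes and a median of -0.12.

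**Figure D3:**
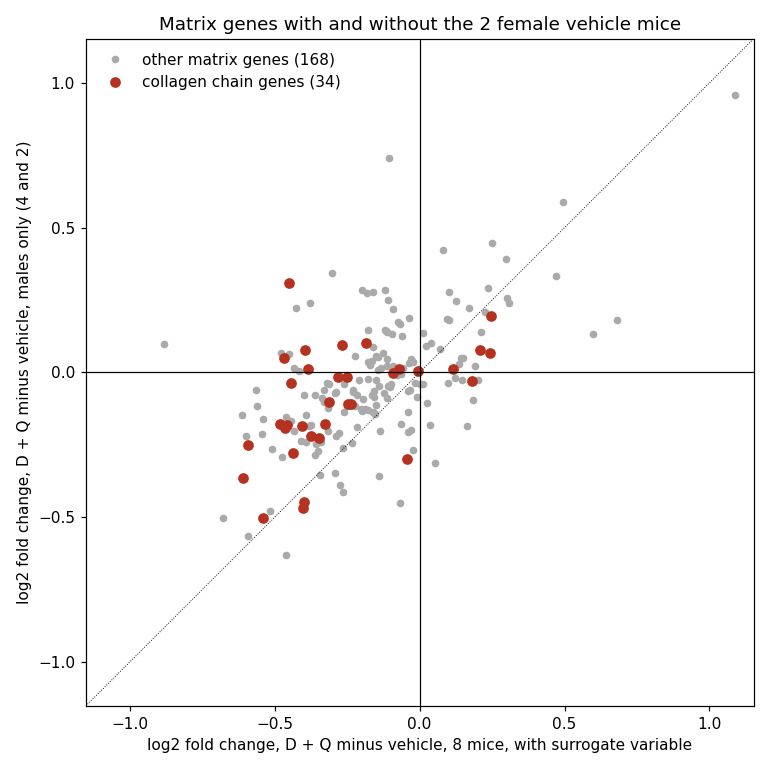
Log2 fold change (D + Q minus vehicle) of 202 matrix genes in all 8 mice with the surrogate variable (horizontal axis) and in the males alone (vertical axis), with the 34 collagen chain genes in red and the dotted line at equality. Of the 160 genes that are negative in all mice, 110 stay negative in males, and of the 34 collagen genes 29 are negative in all mice and 22 in males.

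Collagen chain genes had a median log2 fold change of -0.34, with 29 of 34 negative, and -0.07 with 22 negative in males. Col1a1, the main fibrillar collagen of scar, was at 299.5, 191, 203 and 225 TPM in the D + Q mice and 204, 415, 235 and 468 TPM in the vehicle mice. The female vehicle mice held the 2 highest values, and the male vehicle mice lay inside the D + Q range. The log2 fold change went from -0.47 ± 0.28 to 0.05 in males. Col3a1, its partner in young scar, was at 562, 344, 313 and 558 TPM in the D + Q mice and 471, 598, 501 and 415 TPM in the vehicle mice (-0.33 ± 0.16), with D + Q mice 2 and 3 lowest and D + Q mice 1 and 4 near the top. Col6a1, a chain of the microfibrillar collagen whose loss causes another muscular dystrophy, was at 95.1, 56.3, 46.6 and 84.1 TPM in the D + Q mice and 77.6, 113, 77.4 and 80.4 TPM in the vehicle mice (-0.46 ± 0.19, unadjusted p = 0.035), with vehicle mouse 2 highest. Col24a1, a minor fibrillar collagen, had the lowest log2 fold change of the family (-0.61 ± 0.26, unadjusted p = 0.037), at 2.37, 1.46, 1.88 and 2.5 TPM in the D + Q mice and 2.23, 5.12, 3.35 and 2.62 TPM in the vehicle mice.

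Of the small leucine-rich proteoglycans, which coat collagen fibrils, 12 of 13 were negative (median -0.23), but 5 of them in males (median 0.06). Lum, lumican, was at 58.2, 33.6, 32.6 and 45.5 TPM in the D + Q mice and 50.1, 91.3, 46.2 and 59.9 TPM in the vehicle mice (-0.60 ± 0.24, unadjusted p = 0.03). Bgn, biglycan, was at 277, 187, 133 and 214 TPM in the D + Q mice and 205, 288, 236 and 266 TPM in the vehicle mice (-0.44 ± 0.17, unadjusted p = 0.026). In both, D + Q mouse 1 lay within the vehicle range and D + Q mouse 3 was the lowest of the 8. Matrix crosslinking and matricellular genes were negative in 39 of 41 (median -0.29, -0.06 in males). TGF-beta ligands, receptors and latency proteins, the main fibrogenic pathway, were negative in 17 of 21 (median -0.14). In males the median was -0.12 with 16 negative, and without the surrogate variable it was -0.01 with 12 negative. Ltbp4, which holds latent TGF-beta in the matrix and is a known modifier of dystrophy in mice, was the lowest of them (-0.55 ± 0.22, unadjusted p = 0.03, -0.21 in males), at 48, 37.4, 24.2 and 46.5 TPM in the D + Q mice and 44.5, 64.2, 43.1 and 60.5 TPM in the vehicle mice. Timp1, an inhibitor of matrix proteases, was at 97.1, 11, 7.22 and 50.4 TPM in the D + Q mice and 22.8, 18.7, 61.8 and 12.9 TPM in the vehicle mice. D + Q mouse 1, which is also highest on the surrogate variable, had the highest level. The log2 fold change was -0.59 ± 0.19, unadjusted p = 0.0099, with the surrogate variable and 0.06 without it.

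Markers of the cells that make matrix were also mostly negative. A lower level in whole muscle can mean fewer cells of a type or less RNA per cell, and these cannot be told apart. Fibro-adipogenic progenitor markers were negative in 13 of 16 (median -0.31, -0.16 in males), and their summed TPM ranged from 691 to 1174 with D + Q and from 775 to 1117 with vehicle. Cd248, endosialin, a surface protein of fibroblasts and pericytes (chromosome 19, 5118106 to 5120710), stood at 15.4, 14.6, 13.4 and 16.6 TPM in the D + Q mice and 20.3, 22.7, 17.4 and 23.5 TPM in the vehicle mice. It was the 1 marker of the list with D + Q below vehicle in every mouse (6.25%, against 1.25% of all genes), with a log2 fold change of -0.46 ± 0.15, unadjusted p = 0.01, and -0.32 in males. Tendon cell markers were negative in all 10 genes (median -0.41) but in 2 of 10 in males (median 0.16). Tnmd, tenomodulin, was at 21.5, 8.22, 30.2 and 10.5 TPM in the D + Q mice and 11.3, 40.6, 15.3 and 45.3 TPM in the vehicle mice, high in D + Q mouse 3 and the female vehicle mice. The summed TPM of the tendon list ranged from 207 to 515 with D + Q and from 216 to 825 with vehicle. The part of these tendon transcripts in the collagen and proteoglycan values was not tested.

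Adipocyte markers were negative in 8 of 12 (66.7%, against 66.3% of all genes), with a median of -0.13, or -0.06 rescaled. Their summed TPM ranged from 1484 to 2208 with D + Q and from 2003 to 3036 with vehicle. Plin1, the coat protein of fat droplets, was at 0.341, 0.112, 0.513 and 0.313 TPM in the D + Q mice and 0.617, 1.52, 0.477 and 1.9 TPM in the vehicle mice (-0.81 ± 0.32, unadjusted p = 0.027, -0.37 in males). Cfd, adipsin, was at 3.57, 1.66, 2.74 and 4.66 TPM in the D + Q mice and 3.29, 21.7, 3.45 and 14.9 TPM in the vehicle mice (-1.22 ± 0.58, -0.15 in males). Both were highest in the 2 female vehicle mice, and the male vehicle mice lay close to the D + Q mice. Endothelial markers were negative in 13 of 16 (median -0.19, -0.13 in males). Emcn, endomucin of capillaries and veins, was at 14.1, 15, 14 and 15.1 TPM in the D + Q mice and 15.4, 18.4, 18 and 18.2 TPM in the vehicle mice, where the highest D + Q mouse lay just below the lowest vehicle mouse (-0.25 ± 0.13). Kdr, the VEGF receptor 2, was at 11, 17.6, 8.97 and 12.5 TPM in the D + Q mice and 24.3, 18.9, 17.6 and 14.4 TPM in the vehicle mice (-0.59 ± 0.23, unadjusted p = 0.027), with D + Q mouse 2 inside the vehicle range. Pecam1 and Cdh5, 2 endothelial adhesion genes, had log2 fold changes of -0.25 ± 0.16 and -0.26 ± 0.18.

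**Figure D4:**
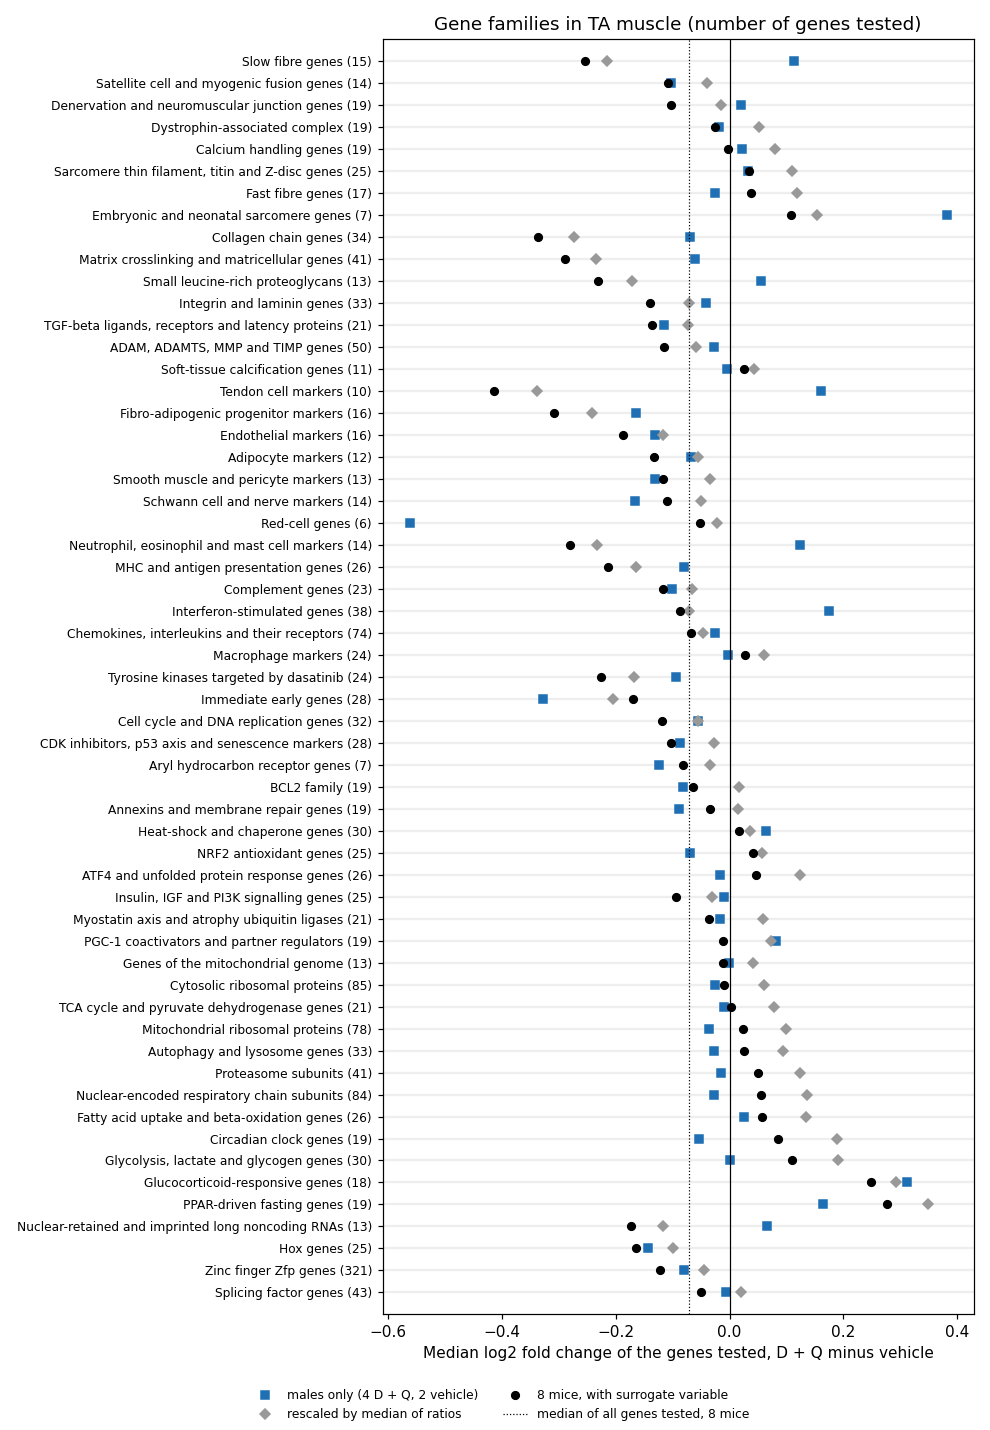
Median log2 fold change (D + Q minus vehicle) of the genes tested in each of 57 families with at least 5 such genes, in all 8 mice with the surrogate variable (black), after rescaling (grey) and in males alone (blue), with the dotted line at the median of all genes. Collagen, proteoglycan, tendon and slow fibre families move toward or past 0 in males, while glucocorticoid-responsive genes lie between 0.25 and 0.31 in all 3.

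Immune families did not separate the groups. Macrophage markers had a median log2 fold change of 0.03 over 24 genes with 11 negative, or 0.17 with 4 negative without the surrogate variable. Their summed TPM ranged from 771 to 1538 with D + Q and from 615 to 1311 with vehicle. Adgre1, the pan-macrophage marker F4/80, was at 13.1, 9.21, 5.71 and 9.21 TPM in the D + Q mice and 10.6, 12.3, 8.25 and 6.12 TPM in the vehicle mice. Spp1, osteopontin, a cytokine of macrophages in injured muscle, was at 69.9, 186, 23.4 and 76 TPM in the D + Q mice and 59.3, 57.4, 67.6 and 9.36 TPM in the vehicle mice, a spread within each group that covers the difference between them (0.60 ± 0.66). Of T and NK cell markers 3 of 22 passed the filter on low TPM, and of B and plasma cell markers 2 of 15. Most lymphocyte markers were thus too low to be tested. Ighm, the constant region of the antibody chain of IgM, was an exception at 42.9, 68.2, 61 and 37 TPM in the D + Q mice and 47.1, 58.1, 52.2 and 19.4 TPM in the vehicle mice. Its groups overlapped and vehicle mouse 4 was the lowest of the 8 (0.33 ± 0.34). Cd3e of the T-cell receptor complex did not exceed 0.377 TPM, and Cd8a was listed at 0 in all D + Q mice.

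Genes of MHC and antigen presentation were negative in 24 of 26 (median -0.21, -0.08 with 18 negative in males). B2m, the light chain of MHC class I, was at 349, 271, 192 and 262 TPM in the D + Q mice and 242, 329, 288 and 295 TPM in the vehicle mice, with D + Q mouse 1 highest and D + Q mouse 3 lowest. Complement genes were negative in 19 of 23 (median -0.12, -0.07 rescaled), but in 11 of them without the surrogate variable (median 0.01). Masp1, a protease that starts the lectin pathway, was the 1 member with D + Q below vehicle throughout (4.35%, against 1.25% of all genes), at 8.08, 8.74, 5.52 and 8.9 TPM in the D + Q mice and 9.63, 16.8, 9.22 and 10.9 TPM in the vehicle mice (-0.55 ± 0.23, unadjusted p = 0.037, -0.28 in males). Interferon-stimulated genes had a median of -0.09 with 25 of 38 negative (65.8%, against 66.3% of all genes). It was -0.07 rescaled, and 0.17 with 5 negative in males. Their mean level was 3.24, 1.92, 1.54 and 2.16 with D + Q and 1.85, 2.28, 2.15 and 1.84 with vehicle, so D + Q mouse 1 stood above the rest. Isg15, a ubiquitin-like protein induced by interferon, was at 11.2, 1.88, 1.4 and 2.94 TPM in the D + Q mice and 0.65, 1.62, 2.04 and 1.1 TPM in the vehicle mice (0.67 ± 0.29, unadjusted p = 0.041).

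Acute response genes showed the widest spread between mice. Immediate early genes, which switch on within minutes of a stimulus, had mean levels of 6.43, 4.70, 3.02 and 4.10 with D + Q and 4.89, 3.30, 5.13 and 3.78 with vehicle. Both the highest and the lowest library were from D + Q mice, and the 3 libraries under 4 included 1 D + Q mouse and both female vehicle mice. Fos was at 555, 160.4, 9.19 and 29.6 TPM in the D + Q mice and 287, 8.82, 223 and 55.2 TPM in the vehicle mice. Egr1 was at 448, 72, 9.01 and 36 TPM in the D + Q mice and 147, 18.3, 121 and 33 TPM in the vehicle mice. Of 137 chemokine, interleukin and receptor genes, 74 passed the filter and 16 were listed at 0 in all 8 mice. Their mean levels were 3.08, 1.90, 1.46 and 2.56 with D + Q and 2.04, 2.02, 2.55 and 1.53 with vehicle, again highest in D + Q mouse 1 and lowest in D + Q mouse 3. Ccl2, a chemokine for monocytes, was at 143, 7.77, 1.88 and 53.7 TPM in the D + Q mice and 13.8, 5.4, 53.8 and 2.79 TPM in the vehicle mice. Cxcl1, a chemokine for neutrophils, was at 101, 2.25, 0.764 and 6.52 TPM in the D + Q mice and 5.79, 1.21, 16.4 and 0.629 TPM in the vehicle mice. Hspa1a, the inducible HSP70, was at 181, 10.6, 1.45 and 7.14 TPM in the D + Q mice and 6.65, 4.39, 9.22 and 8.12 TPM in the vehicle mice, where D + Q mouse 1 stood far above the other 7. Mt2, a metallothionein induced by metals, glucocorticoids and inflammation, was at 3303, 286, 263 and 2201 TPM in the D + Q mice and 245, 146, 1957 and 233 TPM in the vehicle mice, high in D + Q mice 1 and 4 and vehicle mouse 3. The surrogate variable of the model took its highest values in D + Q mouse 1 (0.70), vehicle mouse 3 (0.30) and D + Q mouse 4 (0.23), and its lowest in D + Q mouse 3 (-0.42). For these families the fitted value and the plain difference can differ in sign. The median of immediate early genes was -0.17 with the surrogate variable and 0.17 without it, and that of chemokines and interleukins was -0.07 and 0.15. That of interferon-stimulated genes was 0.15 without it, that of neutrophil, eosinophil and mast cell markers 0.02, and that of red-cell genes 0.14.

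Genes tied to senescence and to the drugs' targets were examined as families of their own. CDK inhibitors, the p53 axis and other senescence markers were negative in 18 of 28 (64.3%, against 66.3% of all genes). Their median was -0.10, or -0.03 rescaled. Cdkn1a, which encodes p21, was at 131, 57.2, 49.6 and 81 TPM in the D + Q mice and 55.4, 60.0, 66.6 and 54.2 TPM in the vehicle mice (0.13 ± 0.13). Cdkn2a, the locus of p16 and p19, was at 5.26, 3.16, 3.72 and 6.06 TPM in the D + Q mice and 4.05, 4.48, 3.86 and 2.11 TPM in the vehicle mice (0.18 ± 0.24). D + Q mice 1 and 4 held the highest values of both genes. Tyrosine kinases blocked by dasatinib were negative in 19 of 24 (median -0.23, -0.09 in males). Src, the founding member of the family, was the lowest at 2.55, 2.26, 1.66 and 3.34 TPM in the D + Q mice and 3.77, 3.73, 3.29 and 3.74 TPM in the vehicle mice (-0.57 ± 0.20, unadjusted p = 0.017, -0.48 in males), with D + Q mouse 4 above vehicle mouse 3. In the BCL2 family 12 of 19 were negative (63.2%, against 66.3% of all genes), with a median of -0.06, or 0.02 rescaled. Bcl2a1a, a survival gene of leukocytes, was the lowest of them, at 1.89, 0.33, 0.326 and 0.998 TPM in the D + Q mice and 1.59, 0.877, 1.8 and 1.24 TPM in the vehicle mice (-0.81 ± 0.22, unadjusted p = 0.0046), with D + Q mouse 1 the highest of all 8 mice. It belongs to a cluster of near-identical copies, and its reads may be split between them.

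NRF2 antioxidant genes were positive in 13 of 25 (median 0.04, -0.07 in males) and held members at both ends. Srxn1, sulfiredoxin, was at 143, 41.3, 17.2 and 69.8 TPM in the D + Q mice and 20.8, 17, 58.3 and 15.1 TPM in the vehicle mice. The 3 highest values were those of D + Q mice 1 and 4 and vehicle mouse 3, and the log2 fold change was 0.60 ± 0.16, unadjusted p = 0.0034. Gstm2, a glutathione transferase, was lower in every D + Q mouse than in any vehicle mouse, at 28.3, 21.4, 25.1 and 25.8 TPM in the D + Q mice and 28.8, 48.3, 29.9 and 40.8 TPM in the vehicle mice (1 of 25 members or 4.00%, against 1.25% of all genes). Its log2 fold change was -0.52 ± 0.19, unadjusted p = 0.021, in all mice and -0.22 in males. Cell cycle and replication genes were negative in 21 of 32 (65.6%, against 66.3% of all genes, median -0.12). Heat-shock genes were negative in 14 of 30 (median 0.02) and genes of ATF4 and the unfolded protein response in 11 of 26 (median 0.05). The rescaled medians of the 3 families were -0.06, 0.04 and 0.12.

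Positive medians were found mainly among metabolic and hormone-responsive families. Genes that PPAR factors drive in fasting had the highest median of the 59 families, 0.28, with 13 of 19 positive, 0.35 after rescaling and 0.16 in males. Pdk4, which shuts pyruvate out of the mitochondrial oxidation of glucose, was at 537, 395, 393 and 694 TPM in the D + Q mice and 435, 305, 349 and 271 TPM in the vehicle mice (0.45 ± 0.18, unadjusted p = 0.033). D + Q mouse 4 was the highest and vehicle mouse 1 lay within the D + Q range. Ucp3, a mitochondrial carrier of muscle, was at 40.3, 66.6, 111 and 93.1 TPM in the D + Q mice and 71.7, 40.1, 56.7 and 50.3 TPM in the vehicle mice (0.57 ± 0.26, 0.18 in males). Angptl4, an inhibitor of lipoprotein lipase, was at 34.7, 6.68, 5.33 and 30.7 TPM in the D + Q mice and 7.23, 2.67, 18.1 and 5.21 TPM in the vehicle mice (0.52 ± 0.34). The mean level of the family was 4.11, 4.17, 4.10 and 4.43 with D + Q and 4.12, 4.06, 3.88 and 3.81 with vehicle, so that vehicle mouse 1 reached the D + Q mice.

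Glucocorticoid-responsive genes were positive in 16 of 18, with a median of 0.25, 0.29 after rescaling and 0.31 in males, where all 18 were positive. Leaving out any 1 mouse gave medians of 0.18 to 0.35. The mean level was 6.11, 5.59, 5.56 and 6.03 with D + Q and 5.10, 5.37, 5.89 and 5.38 with vehicle, with vehicle mouse 3 among the D + Q mice. Fkbp5, a co-chaperone that limits the glucocorticoid receptor and a standard readout of it (chromosome 17, 28618058 to 28737521), stood at 29.8, 25.5, 42 and 47.9 TPM in the D + Q mice and 15.3, 26.1, 25.8 and 23.2 TPM in the vehicle mice. Only D + Q mouse 2 overlapped the vehicle mice, and the log2 fold change was 0.67 ± 0.24, unadjusted p = 0.02, or 0.81 in males. Ddit4, an inhibitor of mTOR signalling, had the highest value of the list (0.73 ± 0.40) at 15.3, 67.8, 59.5 and 18.6 TPM in the D + Q mice and 13.4, 20.1, 32.3 and 37 TPM in the vehicle mice, where D + Q mice 2 and 3 were above all vehicle mice and D + Q mice 1 and 4 were not. Tsc22d3, which encodes the glucocorticoid-induced leucine zipper, had a log2 fold change of 0.25 ± 0.18, and Klf15, a transcription factor of amino acid use, one of -0.17 ± 0.25. At the unadjusted threshold 2 of the 18 were higher, against 0.491% of all genes. The 3 mice with the highest level of the family, D + Q mice 1 and 4 and vehicle mouse 3, were also the 3 with the highest Mt2 and the highest surrogate variable, and the part of this in the family's values was not tested.

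Circadian clock genes were positive in 11 of 19 (median 0.08, -0.05 in males) and included members at both unadjusted thresholds. Nfil3, a repressor of the output arm, was at 51.4, 27, 28.9 and 41.5 TPM in the D + Q mice and 12.6, 15.4, 44.5 and 18.2 TPM in the vehicle mice (0.61 ± 0.26, unadjusted p = 0.041). Npas2, a partner of BMAL1, was at 3.98, 4.02, 1.6 and 2.67 TPM in the D + Q mice and 5.41, 3.71, 4.92 and 3.85 TPM in the vehicle mice (-0.65 ± 0.23, unadjusted p = 0.019). Both overlapped. The core genes Bmal1, Nr1d1 and Dbp had log2 fold changes of -0.09 ± 0.13, 0.10 ± 0.25 and 0.31 ± 0.33.

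Glycolysis, lactate and glycogen genes were positive in 25 of 30 (median 0.11) in all mice, but the median was 0.00 with 15 negative in males. Vehicle mouse 4 had the lowest mean level (7.51 in log2(TPM + 0.5), against 7.78 to 7.99 in the other 7). Pfkm, the rate-setting phosphofructokinase of muscle, was at 892, 1142, 958 and 1119 TPM in the D + Q mice and 1093, 913, 1023 and 719 TPM in the vehicle mice. Nuclear-encoded respiratory chain subunits were positive in 66 of 84 (median 0.06) in all mice, but 64 of 84 were negative in males (median -0.03). Vehicle mouse 4 was again the lowest, at 7.52. Atp5f1a, the alpha subunit of ATP synthase, was at 727, 810.3, 691 and 822 TPM in the D + Q mice and 817, 765, 703 and 546 TPM in the vehicle mice. Beta-oxidation genes (median 0.06), TCA cycle genes (0.00), genes of the mitochondrial genome (-0.01), and the cytosolic (-0.01) and mitochondrial (0.02) ribosomal proteins stayed within 0.06 of 0. Over all genes the median was -0.07. After rescaling these medians were 0.13, 0.08, 0.04, 0.06 and 0.10 in the same order, 0.14 for respiratory chain subunits and -0.004 over all genes. Of 26 beta-oxidation genes, 3 were then negative and 4 lay above in all D + Q mice, against 158 of all 16298 genes. In males the beta-oxidation median was 0.02 with 11 negative. mt-Co1, a cytochrome c oxidase subunit encoded in the mitochondrion, was at 43646, 43162, 38526 and 39418 TPM in the D + Q mice and 41519, 41913, 40175 and 40696 TPM in the vehicle mice (-0.01 ± 0.14). Rps15a was the 1 of 85 cytosolic ribosomal protein genes with D + Q below vehicle in every mouse (1.18%, against 1.25% of all genes), at 83, 74.8, 88 and 85.6 TPM in the D + Q mice and 97.3, 92.4, 91.1 and 89.5 TPM in the vehicle mice (-0.16 ± 0.11).

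The PGC-1 coactivators, which drive mitochondrial genes, split. Ppargc1b was at 8.1, 9.04, 7.42 and 7.48 TPM in the D + Q mice and 14, 17, 7.16 and 12.3 TPM in the vehicle mice, with the D + Q mice close together and vehicle mouse 3 just below them (-0.50 ± 0.23, -0.31 in males), the lowest value of its list. Ppargc1a was at 42.5, 35.8, 26.7 and 23.9 TPM in the D + Q mice and 23.3, 22.1, 19.1 and 40.7 TPM in the vehicle mice (0.31 ± 0.26), the highest of its list. Atrophy ubiquitin ligases and the myostatin axis had a median of -0.04, or 0.06 rescaled. Genes of insulin, IGF and PI3K signalling had one of -0.10, or -0.03 rescaled and -0.01 in males.

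The Zfp genes, the largest family, had the most members with D + Q below vehicle in every mouse. The share was higher in smaller families with 1 such member: fibro-adipogenic progenitor and endothelial markers (6.25% each), complement (4.35%) and NRF2 genes (4.00%). Zfp genes encode C2H2 zinc finger proteins, many of which silence transposable elements and other targets. Of 321 tested, 258 were negative (80.4%, against 66.3% of all genes), with a median of -0.12. In 12 genes all D + Q mice lay below all vehicle mice (3.74%, against 1.25% of all genes) and in none above (0 of 321, against 0.264%). After rescaling 198 were negative, 9 lay below (against 213 of all 16298 genes) and the median was -0.05. In males the median was -0.08 with 226 negative. Besides Zfp113, the members with the lowest log2 fold changes and no overlap included Zfp248, at 0.623, 0.856, 0.752 and 1.2 TPM in the D + Q mice and 1.34, 1.93, 1.43 and 1.79 TPM in the vehicle mice (-0.62 ± 0.21, unadjusted p = 0.016). Zfp442 was at 1.65, 1.52, 2.06 and 2.23 TPM in the D + Q mice and 3.25, 3.07, 3.43 and 2.38 TPM in the vehicle mice (-0.59 ± 0.20, unadjusted p = 0.013). Zfp799 was at 2.26, 2.56, 2.91 and 3.11 TPM in the D + Q mice and 3.53, 5.28, 4.13 and 4.19 TPM in the vehicle mice (-0.54 ± 0.18, unadjusted p = 0.015). The median gene of the family stood at 3.56 TPM over the 8 mice, so these are low values, and many of the genes have near relatives with which they may share reads. The mean level of the family was 1.87, 2.12, 2.06 and 2.19 with D + Q and 2.23, 2.45, 2.09 and 2.15 with vehicle. D + Q mouse 1 was the lowest and vehicle mouse 2 the highest, and the other 6 overlapped.

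Hox genes, which keep a limb position code in adult muscle, were negative in 18 of 25 (median -0.16, -0.14 in males). Hoxa5 was the lowest of them at 1.14, 1.12, 1.3 and 1.54 TPM in the D + Q mice and 2.59, 2.94, 1.39 and 2.2 TPM in the vehicle mice (-0.57 ± 0.23, unadjusted p = 0.031), with D + Q mouse 4 above vehicle mouse 3. Hoxc10, a hindlimb gene, had a log2 fold change of 0.04 ± 0.13, and Hoxa10 one of 0.02 ± 0.18. Splicing factor genes were negative in 35 of 43 but by little (median -0.05, 0.02 rescaled). Among long noncoding RNAs, Malat1, a nuclear transcript, was at 5950, 5791, 5303 and 6122 TPM in the D + Q mice and 5879, 7097, 5407 and 8111 TPM in the vehicle mice. H19, an imprinted RNA of growing and regenerating tissue, was at 809, 708, 676 and 996 TPM in the D + Q mice and 625, 2120, 785 and 1852 TPM in the vehicle mice. Both were highest in the 2 female vehicle mice, and their log2 fold changes of -0.16 ± 0.16 and -0.53 ± 0.37 became 0.04 and 0.17 in males.

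Of the 43 genes above, 24 were protein-coding, 9 were processed pseudogenes and 5 were long noncoding RNAs, and of the 204 below, 148 were protein-coding and 22 long noncoding. The share of each class among all genes tested was not counted, so no class can be called over-represented. Pseudogenes make up several of the 10 leading genes in each direction. Gm8524 was at 0.817, 1.54, 1.39 and 0.521 TPM in the D + Q mice and 0.37, 0, 0 and 0 TPM in the vehicle mice. Gm8508 was at 1.4, 0.689, 1.84 and 0.419 TPM in the D + Q mice and 0, 0, 0 and 0.169 TPM in the vehicle mice. Trmt112-ps1 was at 0.656, 0.636, 0.346 and 0.61 TPM in the D + Q mice and 0, 0.205, 0 and 0 TPM in the vehicle mice. These levels are near the filter, and pseudogene reads can be shared with the parent gene, so their values are uncertain. The remaining leaders above were Gm15694 (listed at 0 in all vehicle mice, so that no fold is given), A930016O22Rik (0.79 ± 0.22), Gm7607 (0.81 ± 0.24), Tent5b, a noncanonical poly(A) polymerase (0.84 ± 0.25), and Sirpb1b, a myeloid surface receptor (0.67 ± 0.21). Sirpb1b was at 0.562, 0.879, 1.05 and 0.958 TPM in the D + Q mice and 0.232, 0.421, 0.44 and 0.467 TPM in the vehicle mice.

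The remaining leaders below were Pilrb2, a paired activating receptor of myeloid cells (-0.98 ± 0.22), and Gm43119, Gm24130, Gm43765, Gm2253, Gm14391, Gm15387 and Gm10780, with log2 fold changes from -2.49 ± 0.63 for Gm15387 to -0.88 ± 0.22 for Gm14391. Pilrb2 was at 0.438, 0.383, 0.0398 and 0.437 TPM in the D + Q mice and 1.02, 0.862, 1.1 and 0.953 TPM in the vehicle mice. Gm15387 was at 12.1, 3.75, 0 and 10.7 TPM in the D + Q mice and 18.7, 12.4, 13.3 and 20.5 TPM in the vehicle mice. D + Q mouse 1 was just below the lowest vehicle mouse. The leaders named here kept their sign in the males alone.

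The families not yet named held no gene with groups that did not overlap. Among matrix proteases and their inhibitors (ADAM, ADAMTS, MMP and TIMP genes) 35 of 50 were negative (median -0.12, -0.03 in males), and among integrin and laminin genes 24 of 33 (median -0.14, -0.04 in males). Soft-tissue calcification genes, of interest because the DBA/2J background mineralises its muscle, had a median of 0.02 over 11 genes. Smooth muscle and pericyte markers (-0.12), Schwann cell and nerve markers (-0.11) and red-cell genes (-0.05, -0.56 in males) had medians below 0. After rescaling they were -0.03, -0.05 and -0.02 in the same order. Markers of neutrophils, eosinophils and mast cells had a median of -0.28 over 14 genes in all mice and 0.12 in males. Calcium handling genes (-0.00), aryl hydrocarbon receptor genes (-0.08), proteasome subunits (0.05), autophagy and lysosome genes (0.02) and annexins with membrane repair genes (-0.03) lay near 0. Their rescaled medians were 0.08, -0.03, 0.12, 0.09 and 0.01 in the same order. In males the proteasome median was -0.02 and the autophagy and lysosome median -0.03. In no family did the mean levels of the 4 D + Q mice lie wholly above or wholly below those of the 4 vehicle mice.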

How the data were processed

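Bulk RNA-seq libraries of TA from 4 D + Q and 4 vehicle DBA/2J-mdx mice were analysed, grouped by the labels for tissue and treatment. The authors trimmed reads with Trim Galore 0.6.10 and quantified transcripts with Salmon 1.10.3 (versions from the submitters' processing notes), summarised them per gene with tximport, and tested counts with DESeq2 and surrogate variables. At the same adjusted p and fold the paper reports genes called in both directions in TA, while the limma fit here called none. The reason for this difference was not tested. The deposited table holds TPM per gene, already scaled to 1000000 per library, so neither depth nor counting error could be recovered. The annotation release is not given in the sources used here. Short transcripts and near-identical copies are the least reliable values.

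Genes that reached a TPM of 0.5 in 3 or more mice were tested on log2(TPM + 0.5) with limma 3.58.1 in R 4.3.3, with a trended prior variance and 1 surrogate variable estimated by iterative re-weighting over 5 rounds. P-values were adjusted over all genes by Benjamini-Hochberg. Calls needed an adjusted p below 0.05 with a log2 fold change beyond 0.5 in either direction, and the unadjusted counts use the same fold. The code was tested on simulated data. The males-only values compare 4 D + Q with 2 vehicle mice without a covariate. Median-of-ratios factors were used as the alternative scale. Gene annotation (GENCODE M39, GRCm39) matched 56236 of 56980 table identifiers, and promoter sequences came from RefSeq (GRCm38.p6). The members and the 59 gene lists were chosen with earlier results of these data known, and no list was tested as a set. The text names the core genes of each list, its highest and lowest member, members whose groups do not overlap, and in each direction the 10 genes with the smallest unadjusted p among those past the fold whose groups do not overlap, and 1 gene of these sets is not reported here. Replicate numbers did not pair the mice: deviations of same-numbered libraries correlated at -0.30 to 0.04, with 0 of 4 pairs over 0.1. Alternatives were other pseudocounts, filters, scaling and covariates, a replicate block, males only, an untrended variance and leaving out each mouse.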

Additional observations from a re-analysis of the deposited data

Results flagged for a closer look

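In 330 groups of 4 mice, the gap between the highest or lowest mouse and its neighbour, divided by the range of the group, reached Dixon's 95% critical value of 0.829 in 20 (6.1%), where chance alone gives about 1 in 20. Among family mean levels, D + Q mouse 1 was low for fast fibre genes (0.854) and Hox genes (0.882), D + Q mouse 3 was low for endothelial markers (0.892) and for autophagy and lysosome genes (0.883), and D + Q mouse 4 was high for ATF4 and unfolded protein response genes (0.858). In the vehicle group, mouse 4 was high for embryonic and neonatal sarcomere genes (0.886) and mouse 2 for collagen chain genes (0.861). D + Q mouse 3 also had the highest share of misc_RNA (0.852).

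Among single genes, Myh4 was low in D + Q mouse 1 (0.829). Col6a1 was high in vehicle mouse 2 (0.902). Emcn was low in vehicle mouse 1 (0.861), Spp1 in vehicle mouse 4 (0.916) and Src in vehicle mouse 3 (0.932). Low-level genes gave the rest. Pilrb2 (0.892) and Trmt112-ps1 (0.870) were low in D + Q mouse 3, and Gm10780 was high in D + Q mouse 4 (1.00). Gm2253 was high in vehicle mouse 4 (0.852). For Gm8524 in vehicle mouse 1, Gm8508 in vehicle mouse 4 and Trmt112-ps1 in vehicle mouse 2 the ratio was 1, because the other 3 vehicle mice were at 0.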

How the results depend on the processing

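Under every alternative that kept all 8 mice, and in males alone, limma called 0 genes at the adjusted threshold in either direction, with 490 genes at an unadjusted p under 0.05 in the reported fit. Leaving out each mouse in turn gave 0 to 1 higher and 0 to 1 lower calls, 78 to 149 higher and 141 to 792 lower genes at the unadjusted threshold, 59 to 198 genes with D + Q above and 217 to 1055 with D + Q below. The 792 and 1055 came without vehicle mouse 3, and the 141 without D + Q mouse 3. Without D + Q mouse 3 more genes separated upward (198). The difference in genes above 0 TPM ranged from -1600 to -828, and it passed the threshold without D + Q mouse 1 (-1600, exact permutation p = 0.0286).

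At the unadjusted threshold the higher genes numbered 47 under the stricter filter, and the lower genes numbered 183 with a pseudocount of 1, 177 after rescaling, 102 with sex as the covariate and 90 in males. Separated genes numbered 102 above and 365 below without a filter, 266 above and 604 below in males, where fewer mice have to be separated, and 158 above after rescaling. Fitting a replicate block in place of the surrogate variable gave 0 adjusted calls, 81 higher and 256 lower genes, and changed no call. The sex covariate gives the same log2 fold changes as the males alone, since all D + Q mice are male. Of 1061 family medians under the alternatives, 1058 moved by less than the spread between mice and 153 changed sign. Sign changes were most frequent in males alone and with sex as the covariate, at 20 of 59 medians in each. Of 1794 values of named genes, 1751 moved by less than that spread and 91 changed sign. Depth is unknown, so genes of low TPM carry counting error that the text cannot give.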

Other observations

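The single adjusted calls made by limma when 1 mouse was left out were 6 transcripts with a symbol and 1 without, all of them at 0 in most or all mice of a group. Without D + Q mouse 2, limma called Gm22357 lower (adjusted p = 6.67e-05), with values of 0, 25.1, 0 and 0 TPM in D + Q mice and 25.9, 27.1, 12.2 and 35.6 TPM in vehicle mice. Without vehicle mouse 2 it called Gm24950 lower (adjusted p = 2.79e-05), which was listed at 0 in all D + Q mice and at 78.3, 0, 61.6 and 37.2 TPM with vehicle. Rnu4atac, the U4atac RNA of the minor spliceosome, was called lower without vehicle mouse 3 (adjusted p = 0.00186), from 0 in all D + Q mice and 14.2, 6.80, 0 and 7.31 TPM with vehicle. Each was kept from separation by the mouse left out. Gm12895 (adjusted p = 0.0181), Gm55300 (0.0209) and Gm12238 (0.00288) were called higher in the same way, and all 4 vehicle mice were at 0 for each. These genes were singled out after their values were seen, and the libraries' depth, which bears on a value of 0, is unknown.

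Rn7s2, a 7SL RNA gene, was at 3.48 TPM in vehicle mouse 2 and at 20604 to 69136 TPM in the other 7 mice, while its near-identical copy Rn7s1 was at 56472 TPM in vehicle mouse 2. The reads of the copies can be assigned to either, so the separate levels are uncertain. This pair, too, was singled out after its values were seen.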
